A study of Mus musculus with 24 samples.

Results

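The genes described here are 9 members of the bone morphogenetic protein (BMP) pathway, out of 53379 genes in the deposited tables: the ligands Bmp2, Bmp4 and Bmp7, the target genes Id1, Id2, Id3, Msx1 and Msx2, and the pseudoreceptor gene Bambi. They were chosen by name for their place in the pathway and matched by gene ID, each to 1 ID, and all 9 passed the filter on low counts. RNA was sequenced from mouse E14 cells in 10 libraries, 2 in each of 5 groups, and all groups share the E14 background. The day 4 groups are embryoid bodies, aggregates in which stem cells differentiate after the self-renewal factor LIF is withdrawn, and they came from Smad2 knockout cells, cells labelled Smad3 knockout, Smad2/3 double knockout cells and wild-type (WT) cells. The last group is WT stem cells at the pluripotent stage, day 0. Both libraries of each knockout carry 1 line number, so a knockout cannot be told apart from its line. The labels name no separate cultures for the replicates. A p-value here weighs a difference between groups only against the spread of libraries within groups, estimated over all 5 groups. That spread may be technical. Chromatin immunoprecipitation made up the other 14 samples, not analysed here.

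BMP ligands are secreted dimers that bind type I and type II receptors, which phosphorylate SMAD1, SMAD5 and SMAD9. These SMADs enter the nucleus with SMAD4, whereas Nodal and Activin signal through SMAD2 and SMAD3 with the same SMAD4. The Id genes are direct and rapid BMP targets whose products bind E proteins, the widely expressed partners of basic helix-loop-helix factors, and keep them off DNA. In mouse embryonic stem cells BMP4 acts through Id genes together with LIF to hold back differentiation, and in the embryo BMP4 from the extraembryonic ectoderm is needed for mesoderm and germ cell formation. Msx1 and Msx2 encode homeodomain repressors that BMP induces in many tissues, and Bambi encodes a receptor-like protein without a kinase domain that dampens BMP and TGF-beta signalling.

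The regions at transcription starts are where SMADs would act at short range, so promoters of paralogs that differed in behaviour are printed here. Of the 9 members, 5 matched a RefSeq promoter on GRCm38.p6 (a window of 300 bases around a RefSeq transcription start), namely Bmp4, Id2, Id3, Msx1 and Msx2. The RefSeq starts of Id2 (25096092), Id3 (136143822) and Msx2 (53472780) lie inside the gene spans of GENCODE M21. Their whole windows do too, so they are not upstream of the outermost annotated start. Both MSX genes and the ID genes Id2 and Id3 are shown, because Id2 and Msx2 were the members called most steadily in the knockouts and Id3 and Msx1 are their close paralogs. Each is written 5' to 3' on the strand of its gene, and capitals mark a match to a motif. The minus strand carries Id2 at chr12:25096043-25096342, Msx1 at chr5:37824536-37824835 and Msx2 at chr13:53472731-53473030, and Id3 lies on the plus strand at chr4:136143572-136143871.
Id2: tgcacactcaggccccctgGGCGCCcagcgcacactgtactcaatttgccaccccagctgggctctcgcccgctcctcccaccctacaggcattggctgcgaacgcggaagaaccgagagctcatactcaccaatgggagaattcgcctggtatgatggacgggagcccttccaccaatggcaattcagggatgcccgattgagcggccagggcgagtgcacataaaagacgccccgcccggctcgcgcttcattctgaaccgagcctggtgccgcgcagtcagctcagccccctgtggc
Id3: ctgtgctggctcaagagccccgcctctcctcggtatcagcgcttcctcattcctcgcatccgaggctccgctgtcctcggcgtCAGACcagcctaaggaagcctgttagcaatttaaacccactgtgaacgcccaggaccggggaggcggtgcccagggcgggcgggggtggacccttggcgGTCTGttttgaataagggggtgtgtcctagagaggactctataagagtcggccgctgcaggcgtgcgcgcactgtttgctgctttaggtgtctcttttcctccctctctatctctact
Msx2: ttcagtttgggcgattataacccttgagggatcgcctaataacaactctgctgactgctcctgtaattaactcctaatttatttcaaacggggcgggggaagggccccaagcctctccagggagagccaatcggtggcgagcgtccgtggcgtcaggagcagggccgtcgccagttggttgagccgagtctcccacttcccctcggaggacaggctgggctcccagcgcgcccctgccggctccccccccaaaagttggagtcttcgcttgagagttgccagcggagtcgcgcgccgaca
Msx1: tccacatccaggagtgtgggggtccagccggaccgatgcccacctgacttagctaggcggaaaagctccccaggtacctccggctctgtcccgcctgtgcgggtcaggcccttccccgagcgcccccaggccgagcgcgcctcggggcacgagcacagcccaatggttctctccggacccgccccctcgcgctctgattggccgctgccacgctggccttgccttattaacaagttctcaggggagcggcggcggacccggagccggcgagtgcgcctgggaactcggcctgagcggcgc
The motifs searched on both strands were GGCGCC, a GC-rich element that SMAD1 and SMAD5 are known to bind, CAGAC, the core shared by SMADs, and AATCCACA, the site of FOXH1, and none of the 3 overlaps another in these windows. Id2 held 1 GGCGCC, starting 20 bases from the 5' end of the window, and 11.9% of 32817 RefSeq promoters of the same length held at least 1. Id3 held CAGAC at bases 84 and 183, the second match on the opposite strand as GTCTG, and 49.6% of all promoters held it. The promoters of Bmp4, Msx1 and Msx2 held none of the 3 motifs, and AATCCACA, present in 0.856% of all promoters, was in none of the 5. GC content was 63.3% in the Id2, 60.0% in the Id3, 61.0% in the Msx2, 70.0% in the Msx1 and 64.0% in the Bmp4 promoter, against a median of 52.7% over all promoters. No match says only that these letters are not in the window.

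Libraries held 35733249 to 53672980 expected counts, and 19470 genes were tested. Levels are counts per 1000000 (CPM) on library totals scaled by the trimmed mean of M values, given for replicate 1 and then replicate 2 of a group, and levels of different genes are compared in transcripts per 1000000 (TPM), which divide by transcript length. A gene is called where the adjusted p is under 0.05 (edgeR's quasi-likelihood test, Benjamini-Hochberg over all tested genes), and every adjusted p below comes from that test unless another tool is named. Smad2 RNA was lower than in WT in the Smad2 knockout (log2 fold change -1.16, SE 0.18, adjusted p = 0.00245) and in the double knockout (-0.98, SE 0.18, adjusted p = 0.00470), the second missing the threshold on log2(TPM + 1) (-0.50, adjusted p = 0.141) and when only those groups were fitted (0.0562). Smad3 RNA was not lower in the libraries labelled Smad3 knockout (0.18, SE 0.16, adjusted p = 0.607), which are therefore called by their label throughout. The estimated mean length of Smad3 transcripts was 4658 and 4272 bases in these libraries and 5090 in every other library. The origin of this difference was not tested. In the Smad2 knockout (-0.49, adjusted p = 0.0405) and the double knockout (-0.69, adjusted p = 0.0136), Smad3 RNA was called lower than in WT. Of the 19 alternatives, 12 lost the first call and 1 reversed it, and 5 lost the second. The summed level of 6 naive stem cell markers was 257 and 607 CPM in the Smad2 knockout, 121 and 126 in the libraries labelled Smad3 knockout, 502 and 384 in the double knockout, 203 and 242 in WT at day 4 and 1704 and 1835 in WT at day 0. Against WT at day 4, 4 of the 6 were called higher in the Smad2 knockout and 2 of the 6 in the double knockout. File names fall into 2 series, the second of which holds replicate 2 of every group but the double knockout. The labels do not say what the series are. Fold changes of all 19470 tested genes, which are not independent, ran with transcript length in some comparisons. Spearman's rho was -0.50 in the Smad2 knockout against WT, shorter genes being higher, and 0.47 in WT at day 4 against day 0, shorter genes being lower. It was -0.07 in the libraries labelled Smad3 knockout and -0.01 in the double knockout, each against WT.

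At least 1 member was called in 7 of the 8 comparisons, and all 9 in none. In the Smad2 knockout against WT at day 4, 5 of the 9 were called higher (Bmp4, Id1, Id2, Msx2 and Bambi), where 15.4% of all tested genes were called higher. None of the 9 was called lower there, where 20.1% of all genes were, and Bmp2 was lower at an unadjusted p of 0.0238. In the libraries labelled Smad3 knockout against WT, edgeR called 0 of 9, where 0.555% of all genes were called in either direction; 2 of the 9 had an unadjusted p under 0.05, DESeq2 called 2 and limma on log2 TPM called 0. In the double knockout against WT, 3 were called higher (Bmp4, Id2 and Msx2) and 1 lower (Bmp2), where 10.8% and 12.3% of all genes were called higher and lower. In WT cells at day 4 against day 0, 3 were called higher (Bmp2, Msx1 and Msx2) and 3 lower (Bmp4, Id2 and Bambi), where 28.9% and 23.2% of all genes were. Libraries of both groups did not overlap for 6, 5 and 7 members in the Smad2 knockout, the libraries labelled Smad3 knockout and the double knockout against WT, where this held for 64.0%, 47.6% and 59.7% of all genes, and for 7 in WT at day 4 against day 0, where it held for 76.3%. With 9 members, shares this close to the background are not read as a result about them. The 3 comparisons with WT share the WT libraries and are given side by side only.

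**Figure D1:**
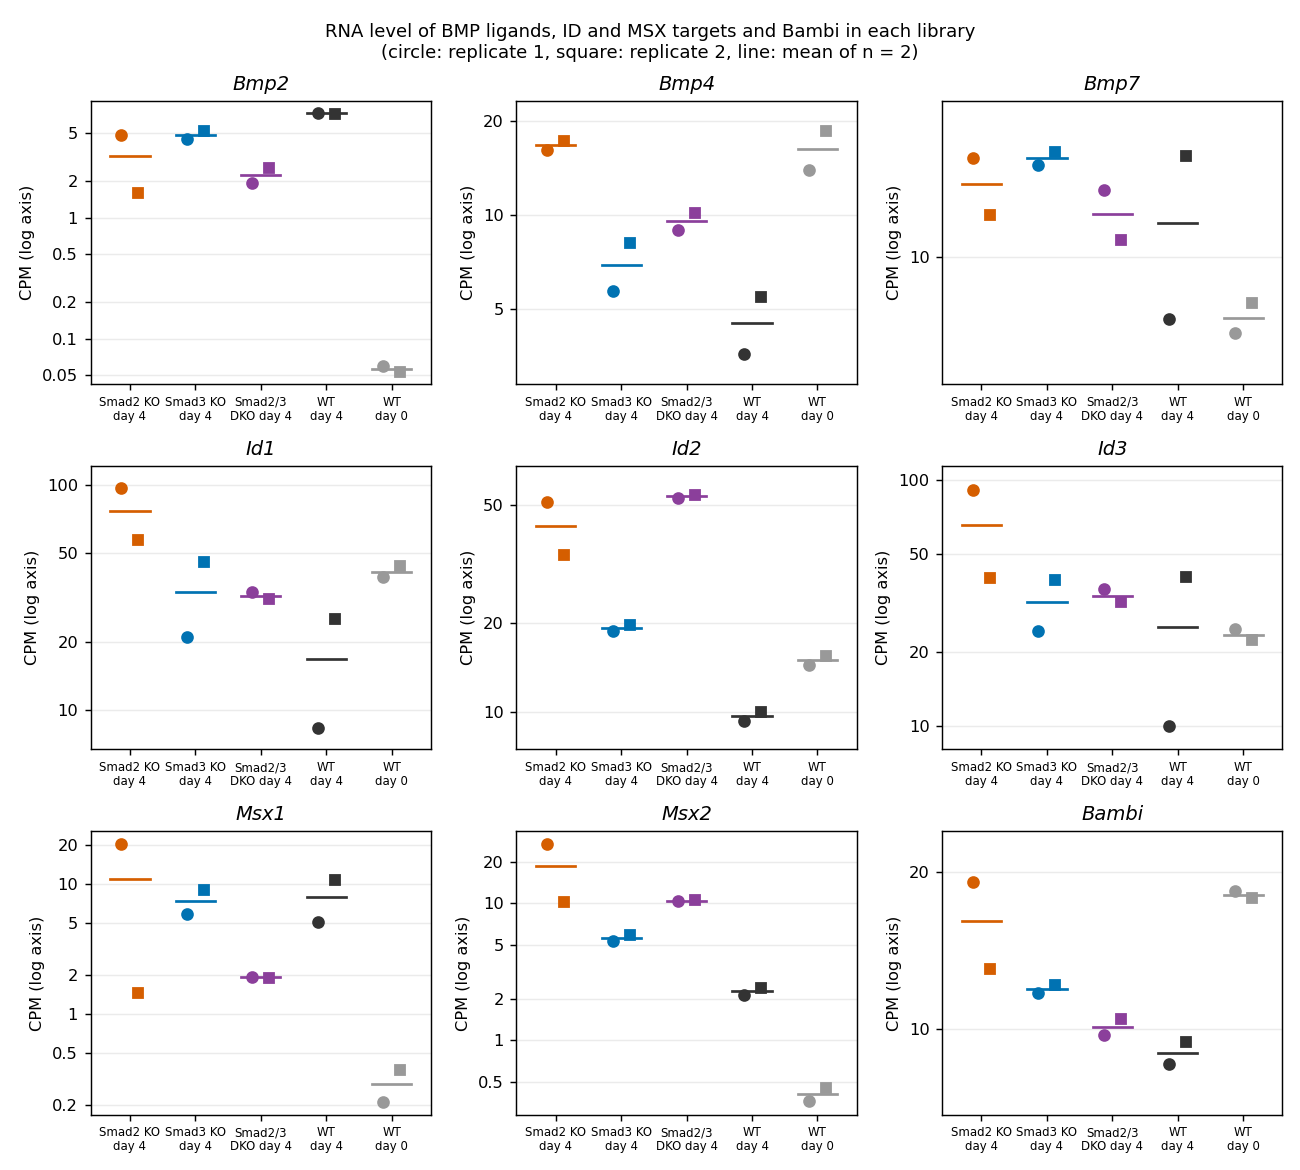
RNA level of each member (CPM, log axis) in every library of the 5 groups; circles are replicate 1, squares replicate 2 and lines the mean of n = 2. Id2 and Msx2 are above both WT day 4 libraries in all 6 knockout libraries, whereas Id1, Id3 and Msx1 spread widely between the 2 libraries of the Smad2 knockout and of WT at day 4.

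Bmp2, a ligand of early mesoderm and of heart formation, had almost no RNA in stem cells and was lower in all knockout libraries than in WT at day 4. It stood at 4.85 and 1.60 CPM in the Smad2 knockout, 4.51 and 5.26 in the libraries labelled Smad3 knockout, 1.93 and 2.60 in the double knockout and 7.43 and 7.25 in WT at day 4. At day 0, Bmp2 was at 0.0598 and 0.0527 CPM. All 6 knockout libraries were below both WT day 4 libraries, and all 8 day 4 libraries were far above day 0. The double knockout was called lower than WT (log2 fold change -1.70, SE 0.45, adjusted p = 0.0241), a call lost without double knockout replicate 1 (adjusted p = 0.164), without its replicate 2 (0.0899) and without WT replicate 1 (0.0554). In the Smad2 knockout the value was -1.19 (SE 0.44, adjusted p = 0.0621), and it became -2.20 (adjusted p = 0.00712) without Smad2 knockout replicate 1 and -0.60 (adjusted p = 0.167) without its replicate 2. Limma on log2(TPM + 1) called it (-1.19, adjusted p = 0.00341), as did DESeq2 (-1.17, adjusted p = 0.0425). Libraries labelled Smad3 knockout gave -0.59 (SE 0.44, adjusted p = 0.528). From day 0 to day 4 the WT log2 fold change was 6.96 (SE 0.67, adjusted p = 8.83e-05), a value that rests on 2 counts in each day 0 library.

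The mesoderm and primitive streak markers (T, Mixl1, Mesp1, Eomes, Kdr and Pdgfra) summed to 158 and 14.8 CPM in the Smad2 knockout, 214 and 234 in the libraries labelled Smad3 knockout, 37.2 and 27.3 in the double knockout, 397 and 402 in WT at day 4 and 4.90 and 5.53 in WT at day 0. Called lower than WT were 3 of the 6 in the Smad2 knockout, 0 in the libraries labelled Smad3 knockout and 4 in the double knockout. Against the Smad2 knockout, 2 of the 6 were called higher and 4 lower in the double knockout. The order of the group means of the sum at day 4 was that of the mean Bmp2 CPM. On Bmp2 CPM the Smad2 knockout overlapped both other knockouts. The TPM mean of Bmp2, by contrast, was 0.855 with Smad2 knocked out and 1.09 with both genes knocked out. Within the Smad2 knockout the library with less Bmp2 also had less of these markers. Their part in the Bmp2 values was not tested. In bulk RNA of this kind, fewer cells of a type and less RNA per cell cannot be told apart.

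Bmp4, the ligand best known for supporting self-renewal in mouse stem cells, had its highest CPM in the Smad2 knockout and in stem cells and its lowest in WT embryoid bodies. It stood at 16.1 and 17.2 CPM in the Smad2 knockout, 5.71 and 8.12 in the libraries labelled Smad3 knockout, 8.95 and 10.1 in the double knockout and 3.59 and 5.44 in WT at day 4. At day 0, Bmp4 was at 13.9 and 18.5 CPM. No knockout library overlapped WT at day 4 on this scale. The naive stem cell markers given above were also higher in the Smad2 knockout, the double knockout and stem cells than in WT at day 4. In the libraries labelled Smad3 knockout they were lower (121 and 126 CPM against 203 and 242), where Bmp4 was higher. Within the Smad2 knockout they lay far apart (257 and 607 CPM), where Bmp4 lay close. The part of these markers in the Bmp4 values was not tested. In log2 terms the Smad2 knockout exceeded WT by 1.88 (SE 0.28, adjusted p = 0.00212). Libraries labelled Smad3 knockout gave 0.61 (SE 0.28, adjusted p = 0.302). The double knockout exceeded WT by 1.08 (SE 0.28, adjusted p = 0.0224). The double knockout call was lost without its replicate 1 (adjusted p = 0.0790), without its replicate 2 (0.125) and without WT replicate 1 (0.0605). WT cells at day 4 were called lower than at day 0 (-1.84, SE 0.28, adjusted p = 0.000800).

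The Bmp4 differences were not called once the counts were divided by length. The mean transcript length that RSEM gave Bmp4 was 1786 and 1763 bases in the Smad2 knockout, 1159 and 1273 in the libraries labelled Smad3 knockout, 1366 and 1344 in the double knockout, 727 and 1366 in WT at day 4 and 1772 and 1644 in WT at day 0. These means stand for a mixture of the annotated transcripts, which in GENCODE M21 are 2 protein-coding ones of 2064 and 1633 bases and 2 with a retained intron of 517 and 258 bases. Bmp4 stood at 9.16 and 9.03 TPM in the Smad2 knockout, 8.89 and 11.1 in the libraries labelled Smad3 knockout, 12.05 and 14.1 in the double knockout, 9.46 and 6.36 in WT at day 4 and 6.15 and 11.3 in WT at day 0. On log2(TPM + 1) limma gave 0.20 (adjusted p = 0.615) for the Smad2 knockout, 0.68 (adjusted p = 0.133) for the double knockout and -0.10 (adjusted p = 0.805) for WT at day 4 against day 0. The TPM scale also moved the median of all genes, by -0.32 in the Smad2 knockout against WT, 0.10 in the double knockout against WT and 0.38 in WT at day 4 against day 0. Relative to that median the Bmp4 values were 0.52, 0.58 and -0.47. The part of the estimated transcript mixture in the CPM differences was not tested.

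**Figure D2:**
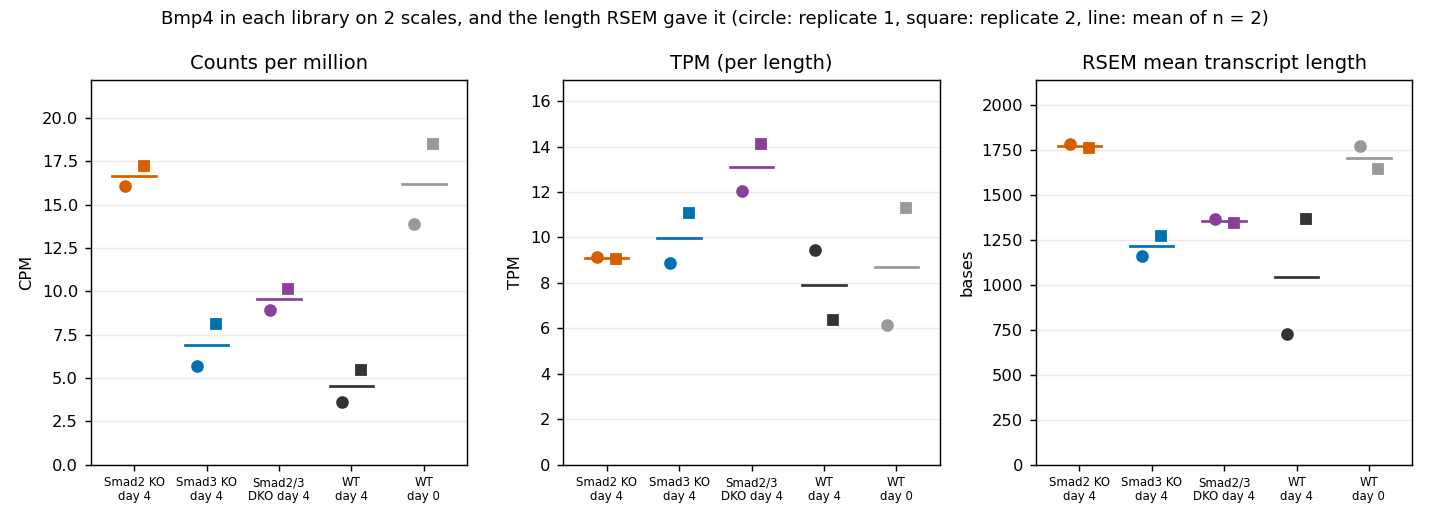
Bmp4 in every library as CPM (left), TPM (middle) and RSEM mean transcript length in bases (right), all from 0; circles are replicate 1, squares replicate 2 and lines the mean of n = 2. The Smad2 knockout has 16.1 and 17.2 CPM against 3.59 and 5.44 in WT at day 4, and 9.16 and 9.03 TPM against 9.46 and 6.36.

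Bmp7, a ligand expressed broadly in early embryos, was called in none of the 8 comparisons. It stood at 15.4 and 12.03 CPM in the Smad2 knockout, 14.9 and 15.8 in the libraries labelled Smad3 knockout, 13.4 and 10.8 in the double knockout and 7.61 and 15.6 in WT at day 4. At day 0, Bmp7 was at 7.17 and 8.16 CPM. On log2(TPM + 1), limma called WT at day 4 higher than at day 0 (1.00, adjusted p = 0.0190, or 0.62 relative to the median of all genes). The WT day 4 libraries lay so far apart that 6 of the other 8 libraries fell between them. Without WT day 4 replicate 2 the Smad2 knockout (0.85, adjusted p = 0.0245) and the libraries labelled Smad3 knockout (1.01, adjusted p = 0.0358) were called higher. Without WT day 4 replicate 1, WT at day 4 was called higher than at day 0 (0.98, adjusted p = 0.00977).

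The balance of Bmp4 to Bmp2, which compares 2 genes within each library and needs no scaling of library totals, was shifted against WT at day 4 in every knockout library. The ratio of Bmp4 to Bmp2 counts was 3.32 and 10.8 in the Smad2 knockout, 1.27 and 1.54 in the libraries labelled Smad3 knockout, 4.63 and 3.89 in the double knockout, 0.483 and 0.751 in WT at day 4 and 232 and 352 in WT at day 0. WT embryoid bodies were the only group with fewer Bmp4 than Bmp2 reads. As a ratio of TPM the values were 6.94 and 23.2 in the Smad2 knockout, 4.34 and 4.83 in the libraries labelled Smad3 knockout, 13.1 and 11.2 in the double knockout and 2.92 and 2.16 in WT at day 4, so every knockout library was above both WT libraries on either scale. Bmp2 is the longer gene (3555 bases), and neither ratio removes a trend of fold changes with length such as that in the Smad2 knockout. With 2 libraries a group these ratios are a description with no test.

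**Figure D3:**
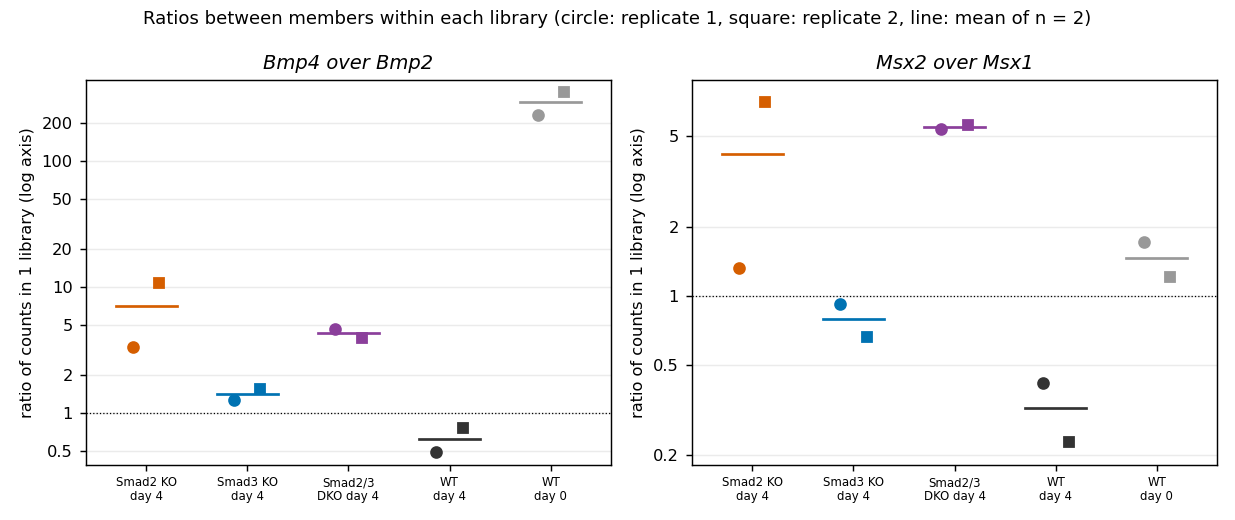
Ratio of Bmp4 to Bmp2 counts (left) and of Msx2 to Msx1 counts (right) within each library, on log axes; circles are replicate 1, squares replicate 2, solid lines the mean of n = 2 and the dotted line a ratio of 1. All 6 knockout libraries lie above both WT day 4 libraries in each panel.

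Id2 was higher than in WT in the Smad2 and double knockouts, with the libraries labelled Smad3 knockout in between. It stood at 50.9 and 33.9 CPM in the Smad2 knockout, 18.7 and 19.6 in the libraries labelled Smad3 knockout, 52.8 and 54.0 in the double knockout and 9.35 and 10.0 in WT at day 4. At day 0, Id2 was at 14.5 and 15.5 CPM. No 2 groups overlapped. The level was 4.38-fold that of WT in the Smad2 knockout (log2 fold change 2.13, SE 0.21, adjusted p = 0.000567) and 5.52-fold in the double knockout (2.46, SE 0.22, adjusted p = 0.000106), and both calls held in all 19 alternatives. The libraries labelled Smad3 knockout were at 1.98-fold (0.98, SE 0.21, adjusted p = 0.0728), with an unadjusted p of 0.000977 and an adjusted p of 0.00294 in DESeq2. This value was called without Smad2 knockout replicate 1 (adjusted p = 0.0359), without its replicate 2 (0.0346) and without WT replicate 2 (0.0299).

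Direct contrasts placed Id2 in the libraries labelled Smad3 knockout below both other knockouts. The double knockout was higher than the libraries labelled Smad3 knockout by 1.48 (SE 0.21, adjusted p = 0.00195), in all 19 alternatives. The Smad2 knockout was higher than them by 1.15 (SE 0.21, adjusted p = 0.00457), a call lost without Smad3 knockout replicate 1 (adjusted p = 0.0501), with a length correction (0.57, adjusted p = 0.0952) and on log2(TPM + 1) (0.31, adjusted p = 0.328). Between the double and the Smad2 knockout the difference was 0.33 (SE 0.20, adjusted p = 0.217); it was called without Smad2 knockout replicate 1 (0.65, adjusted p = 0.0380) and on log2(TPM + 1) (1.22, adjusted p = 0.00298). In WT, Id2 was lower at day 4 than at day 0 by a small margin (-0.63, SE 0.21, adjusted p = 0.0297), which 9 of the alternatives that keep CPM lost, among them leaving out either day 0 library (adjusted p = 0.0857 and 0.121) or WT day 4 replicate 1 (0.0668) or any 1 library labelled Smad3 or double knockout (0.0559 to 0.0574), and which had the other sign with a length correction (0.04) and on log2(TPM + 1) (0.19, or -0.19 relative to the median of all genes).

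Id1, the paralog usually taken as the standard BMP readout, was highest in the Smad2 knockout and lowest in WT at day 4. It stood at 97.1 and 56.8 CPM in the Smad2 knockout, 21.1 and 45.6 in the libraries labelled Smad3 knockout, 33.4 and 31.0 in the double knockout and 8.35 and 25.5 in WT at day 4. At day 0, Id1 was at 38.9 and 43.5 CPM. Both Smad2 knockout libraries were above every other library on this scale. As TPM, Smad2 knockout replicate 2 (64.7) was below both double knockout libraries (69.7 and 65.9). It was also below replicate 2 of the libraries labelled Smad3 knockout (90.75). The WT day 4 libraries lay far apart. The Smad2 knockout was called higher than WT (log2 fold change 2.19, SE 0.52, adjusted p = 0.0118), a call lost without its replicate 1 (1.75, adjusted p = 0.0701). The libraries labelled Smad3 knockout (0.98, SE 0.50, adjusted p = 0.355) and the double knockout (0.93, SE 0.50, adjusted p = 0.221) were not called, and without WT replicate 2 both were (2.00, adjusted p = 0.0289, and 1.94, adjusted p = 0.0132). The change of WT from day 0 to day 4 was -1.29 (SE 0.51, adjusted p = 0.0581) and was called without WT day 4 replicate 2 (-2.30, adjusted p = 0.00307) and in 8 other alternatives.

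Id3, which in embryos often overlaps with Id1, was not called in any of the 8 comparisons. It stood at 91.2 and 40.0 CPM in the Smad2 knockout, 24.4 and 39.3 in the libraries labelled Smad3 knockout, 35.9 and 31.9 in the double knockout and 10.1 and 40.3 in WT at day 4. At day 0, Id3 was at 24.8 and 22.3 CPM. WT day 4 replicate 2 was above 8 of the other 9 libraries, and replicate 1 was the lowest of all. Without that replicate 2, Id3 was called higher than WT in the Smad2 knockout (2.70, adjusted p = 0.00230), the libraries labelled Smad3 knockout (1.66, adjusted p = 0.0474) and the double knockout (1.75, adjusted p = 0.0211), and lower in WT at day 4 than at day 0 (-1.22, adjusted p = 0.0476). With both WT libraries the values were 1.38 (adjusted p = 0.0900), 0.34 (0.811), 0.43 (0.634) and 0.10 (0.899). The Id1 call in the Smad2 knockout held without either WT library, and so did the Id2 calls in the Smad2 and double knockouts. The ID genes are short, with mean lengths of 939 to 1268 bases, so the trends with length given above bear on them. The calls of Id1 and Id2 in the Smad2 knockout against WT held with a length correction.

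As TPM, the 3 ID genes were the most abundant members in every library, with a sum of 237 and 123 TPM in the Smad2 knockout, 104 and 174 in the libraries labelled Smad3 knockout, 203 and 197 in the double knockout, 42.9 and 112 in WT at day 4 and 61.9 and 84.5 in WT at day 0. Id2 made up 18.02 and 21.5% of this sum in the Smad2 knockout, 25.5 and 15.7% in the libraries labelled Smad3 knockout, 38.4 and 41.4% in the double knockout, 29.4 and 11.4% in WT at day 4 and 15.2 and 15.4% in WT at day 0. The double knockout was the only group in which Id2 was the most abundant of the 3 in both libraries.

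Msx2 was likewise called higher than WT in the Smad2 and double knockouts. It stood at 26.9 and 10.3 CPM in the Smad2 knockout, 5.35 and 5.85 in the libraries labelled Smad3 knockout, 10.4 and 10.6 in the double knockout and 2.13 and 2.42 in WT at day 4. At day 0, Msx2 was at 0.359 and 0.448 CPM. Every knockout library was above both WT day 4 libraries, which were in turn above both day 0 libraries. The level was 8.16-fold that of WT in the Smad2 knockout (log2 fold change 3.03, SE 0.41, adjusted p = 0.00142) and 4.61-fold in the double knockout (2.20, SE 0.40, adjusted p = 0.00428), and both calls held in all 19 alternatives. Without Smad2 knockout replicate 1 its log2 value was 2.17. On log2(TPM + 1) the Smad2 knockout was at 1.62 and the double knockout at 1.81. The libraries labelled Smad3 knockout were at 2.46-fold (1.30, SE 0.40, adjusted p = 0.156), with an unadjusted p of 0.00909 and an adjusted p of 0.0362 in DESeq2, and were called without Smad2 knockout replicate 1 (adjusted p = 0.0405) or replicate 2 (0.0360). The Smad2 knockout was higher than the libraries labelled Smad3 knockout by 1.73 (SE 0.39, adjusted p = 0.0103), a call lost without either library labelled Smad3 knockout (adjusted p = 0.0782 and 0.0567) and on log2(TPM + 1) (0.66, adjusted p = 0.170). The WT rise from day 0 to day 4 (2.48, SE 0.46, adjusted p = 0.00205) held in all 19 alternatives.

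Msx1, its paralog, was called higher in WT at day 4 than at day 0 and in no comparison of knockouts. It stood at 20.3 and 1.45 CPM in the Smad2 knockout, 5.82 and 8.88 in the libraries labelled Smad3 knockout, 1.93 and 1.88 in the double knockout and 5.10 and 10.6 in WT at day 4. At day 0, Msx1 was at 0.209 and 0.369 CPM. The 2 Smad2 knockout libraries held the highest and, at day 4, the lowest Msx1 level, a gap of the same direction as that in the summed mesoderm markers (158 and 14.8 CPM), whose part was not tested. The Smad2 knockout differed from WT by 0.46 (SE 0.86, adjusted p = 0.701), and by -2.44 (adjusted p = 0.0221) without its replicate 1. Both double knockout libraries were below both WT libraries (-2.05, SE 0.91, adjusted p = 0.140), and this difference was called without Smad2 knockout replicate 1 (adjusted p = 0.0104) or replicate 2 (0.00946). Libraries labelled Smad3 knockout gave -0.10 (SE 0.86, adjusted p = 0.973). WT cells at day 4 were higher than at day 0 (4.74, SE 1.10, adjusted p = 0.00624), a call lost without WT day 0 replicate 1 (4.41, adjusted p = 0.0573).

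Within libraries, Msx2 outweighed Msx1 in the double knockout and not in WT embryoid bodies. The ratio of Msx2 to Msx1 counts was 1.33 and 7.09 in the Smad2 knockout, 0.920 and 0.658 in the libraries labelled Smad3 knockout, 5.41 and 5.62 in the double knockout, 0.417 and 0.228 in WT at day 4 and 1.71 and 1.21 in WT at day 0. The ratio of TPM kept the order, with 1.03 and 5.46 in the Smad2 knockout, 0.713 and 0.511 in the libraries labelled Smad3 knockout, 4.18 and 4.37 in the double knockout and 0.323 and 0.178 in WT at day 4. Every knockout library was above both WT day 4 libraries on both scales, as a description with no test.

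**Figure D4:**
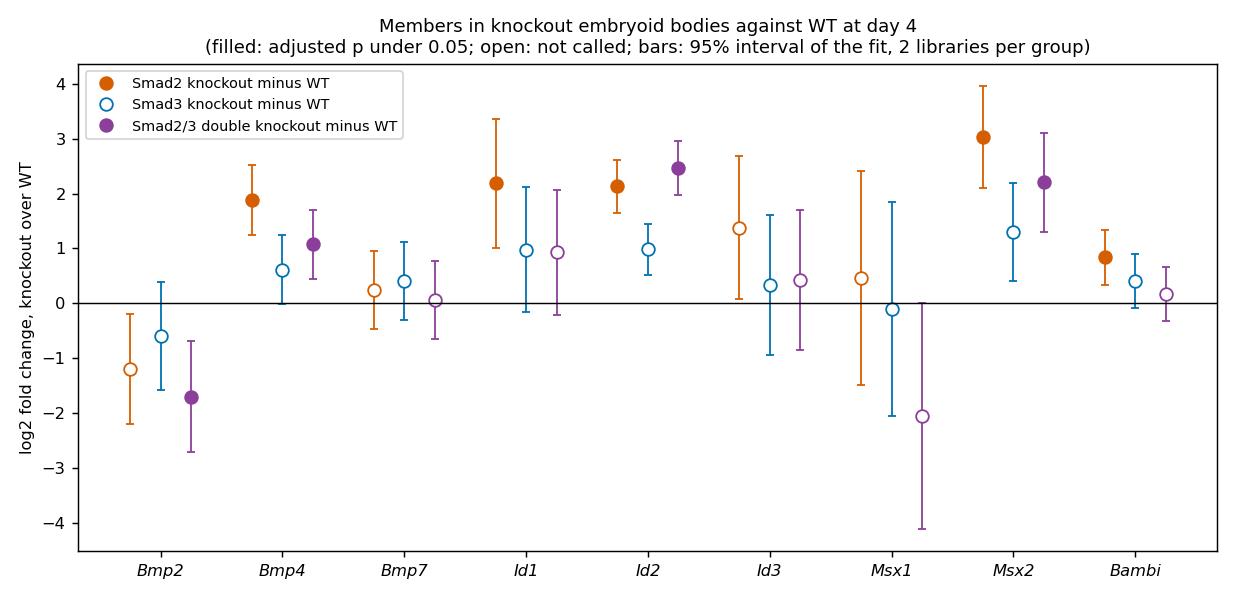
Log2 fold change of each member in the 3 knockouts over WT at day 4, with the 95% interval of the fit over 2 libraries a group; filled points are called (adjusted p under 0.05) and open points are not. Id2 and Msx2 are called in the Smad2 knockout (2.13 and 3.03) and in the double knockout (2.46 and 2.20), and no member is called in the libraries labelled Smad3 knockout.

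Bambi, the pseudoreceptor that is itself induced by BMP, was higher than WT in the Smad2 knockout and lower in WT at day 4 than at day 0. It stood at 19.2 and 13.04 CPM in the Smad2 knockout, 11.7 and 12.1 in the libraries labelled Smad3 knockout, 9.76 and 10.5 in the double knockout and 8.57 and 9.46 in WT at day 4. At day 0, Bambi was at 18.4 and 17.8 CPM. All knockout libraries were above both WT day 4 libraries, and the Smad2 knockout and day 0 overlapped. The Smad2 knockout was called higher than WT (log2 fold change 0.84, SE 0.22, adjusted p = 0.0174), a call lost without its replicate 1 (0.53, adjusted p = 0.0914), when no other groups were fitted (0.155) and on log2(TPM + 1) (0.08, adjusted p = 0.811, or 0.40 relative to the median of all genes). The libraries labelled Smad3 knockout (0.40, adjusted p = 0.376) and the double knockout (0.16, adjusted p = 0.636) were not called. WT at day 4 was lower than WT at day 0 (-1.01, SE 0.22, adjusted p = 0.00465), which log2(TPM + 1) did not call (-0.13, adjusted p = 0.664; -0.50 relative to the median).

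Contrasts between knockouts called few members. The Smad2 knockout was higher than the libraries labelled Smad3 knockout in 3 of 9, Bmp4, Id2 and Msx2, where 15.7% of all genes were called higher; for Bmp4 the difference was 1.27 (SE 0.28, adjusted p = 0.00930), lost without Smad3 knockout replicate 1 (1.04, adjusted p = 0.0933) and turned to -0.11 on log2(TPM + 1), or 0.28 relative to the median of all genes. The double knockout was higher than the libraries labelled Smad3 knockout in 1 of 9, Id2, where 7.53% of all genes were. The double knockout was lower than the Smad2 knockout in 2 of 9, Bmp4 (-0.81, SE 0.28, adjusted p = 0.0431) and Bambi (-0.67, SE 0.22, adjusted p = 0.0365), where 19.1% of all genes were. Both lost their call without any 1 library of the double knockout, the libraries labelled Smad3 knockout or WT at day 0 and without Smad2 knockout replicate 1, and Bmp4 also without Smad2 knockout replicate 2, with adjusted p from 0.0530 to 0.198. On log2(TPM + 1) both had the other sign, 0.48 for Bmp4 and 0.19 for Bambi, where the median of all genes moved by 0.43.

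The interaction asked whether losing Smad2 acts differently in cells labelled Smad3 knockout than in WT, as the difference of the double from the Smad3 knockout minus that of the Smad2 knockout from WT. It was called below 0 for 3 of 9 members, where 7.52% of all genes were: Bmp4 (-1.42, SE 0.39, adjusted p = 0.0363), Msx2 (-2.12, SE 0.55, adjusted p = 0.0296) and Bambi (-1.08, SE 0.31, adjusted p = 0.0412). For Msx2 the parts were 0.91 for the double against the libraries labelled Smad3 knockout and 3.03 for the Smad2 knockout against WT. None of the 3 calls held on log2(TPM + 1), where Bmp4 was at 0.16, Msx2 at -0.77 and Bambi at -0.18, or -0.23, -1.16 and -0.57 relative to the median of all genes. Each was also lost without either double knockout library and without either library labelled Smad3 knockout (adjusted p from 0.0574 to 0.159) and without WT day 4 replicate 1 (0.0536 to 0.0629). Bmp4 and Bambi lost it without either day 0 library as well (0.0516 to 0.0702), Bmp4 without either Smad2 knockout library (0.0717 and 0.0694) and Bambi without Smad2 knockout replicate 1 (0.0940). For Id2 the interaction was -0.65 (SE 0.29, adjusted p = 0.138), and it was called without Smad2 knockout replicate 2 (-0.92, adjusted p = 0.0341).

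Log2 differences within the file name series are given next, from 1 library of a single knockout and 1 of WT in each. CPM of Id1, Id2, Msx2 and Bmp4 did not overlap between the Smad2 knockout and WT, so differences above 0 were fixed in advance. The same held for Id2 and Msx2 in the libraries labelled Smad3 knockout. These values are a description and add no support. As TPM, Bmp4 in the first series was at 9.16 in the Smad2 knockout and 9.46 in WT at day 4. Within the first and the second series, the log2 difference of the Smad2 knockout from WT was 2.38 and 1.71 for Id2, 3.38 and 1.88 for Msx2 and 2.02 and 1.58 for Bmp4. It was 3.46 and 1.14 for Id1, 3.12 and -0.01 for Id3 and 1.89 and -2.51 for Msx1. The libraries labelled Smad3 knockout differed from WT by 0.96 and 0.94 for Id2 and by 1.16 and 1.12 for Msx2. Both double knockout libraries belong to the first series, where the difference from WT was 2.45 for Id2, 2.07 for Msx2, 1.29 for Bmp4 and -1.52 for Bmp2.

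Markers of trophoblast and of surface ectoderm, epithelial lineages of the early embryo, had higher sums in every knockout library than in both WT day 4 libraries, as Id2 and Msx2 did. The 10 trophoblast markers summed to 213 and 176 CPM in the Smad2 knockout, 57.0 and 66.2 in the libraries labelled Smad3 knockout, 400 and 405 in the double knockout, 33.2 and 41.8 in WT at day 4 and 68.4 and 70.7 in WT at day 0. Called higher than WT were 9 of 10 in the Smad2 and double knockouts and 2 of 10 in the libraries labelled Smad3 knockout, and Tpbpa and Prl3d1 had 0 counts in the libraries labelled Smad3 knockout and in WT. The 7 surface ectoderm markers summed to 2601 and 1780 CPM in the Smad2 knockout, 614 and 784 in the libraries labelled Smad3 knockout, 1858 and 2331 in the double knockout, 202 and 381 in WT at day 4 and 155 and 138 in WT at day 0. The 9 extraembryonic endoderm markers ran the other way at day 4, with 44.4 and 41.7 CPM in the Smad2 knockout, 403 and 407 in the libraries labelled Smad3 knockout, 163 and 105 in the double knockout and 717 and 663 in WT. Called lower than WT were 9 of 9 in the Smad2 knockout, 0 in the libraries labelled Smad3 knockout and 8 in the double knockout. In the same comparisons 5, 1 and 6 of the 7 surface ectoderm markers were called higher. The shares of all genes called are given above. Other orders differed, in part by scale. The trophoblast sum was higher in the double than in the Smad2 knockout. Mean Msx2 was lower in the double knockout as CPM, where the 2 groups overlapped, but not as TPM (7.525 against 7.29). The trophoblast sum was also higher in WT at day 0 than at day 4, with Msx2 lower at day 0. The surface ectoderm sum was lower at day 0 than at day 4 in WT. Id2 was higher at day 0 as CPM and lower as mean TPM (11.2 against 12.7). The 5 fibroblast markers summed to 50.5 and 52.2 CPM in the Smad2 knockout, 28.8 and 34.2 in the libraries labelled Smad3 knockout, 25.1 and 22.3 in the double knockout, 15.02 and 22.4 in WT at day 4 and 23.0 and 25.7 in WT at day 0, with 4 of 5 called higher and 1 lower in the Smad2 knockout against WT. The part of these cell types in the members' values was not tested.

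The genes whose log2 CPM ran closest to each member over the 10 libraries, among 11204 genes of at least 5 CPM on average, are given as a description, since the libraries share groups and lines. For Id2, Krt7, a keratin of simple epithelia, was among them (Pearson r 0.988). For Msx2 they were Anxa5 (0.991), an annexin, and Suox (0.981), sulfite oxidase. Bmp2 ran closest to Tcaf1 (0.994) and Frzb (0.991), a secreted WNT antagonist, and Bmp4 to Acy3 (0.978) and Hagh (0.975). The closest to Id1 were Plaur (0.987), the urokinase receptor, and Spsb2 (0.981), those to Id3 were Zdhhc7 (0.967) and Efemp2 (0.964), and those to Msx1 were Nefm (0.954), a neurofilament, and Wdr45b (0.952). Bmp7 ran closest to Apbb1 (0.972) and Ddr1 (0.968), a collagen receptor, and Bambi to Cdpf1 (0.959) and Timmdc1 (0.959).

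Of 65 other genes of the pathway, in 6 lists by role, 57 were tested. Smad6 and Smad7 are in both the list of SMADs and that of response genes, and are counted in each role below. In the Smad2 knockout against WT 14 were higher and 16 lower, in the libraries labelled Smad3 knockout 3 and 1, and in the double knockout 14 and 8. Of all tested genes, 15.4% were higher and 20.1% lower in the Smad2 knockout, 0.555% were called in either direction in the libraries labelled Smad3 knockout, and 10.8% were higher and 12.3% lower in the double knockout, and the counts of each role below stand against these shares. Their median log2 fold change was -0.25, 0.01 and 0.13 in these comparisons, against -0.01, -0.04 and -0.05 for all genes. The directions differed by role.

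Among 16 other BMP response genes, 8 were higher and 0 lower in the Smad2 knockout, 3 and 0 in the libraries labelled Smad3 knockout and 8 and 0 in the double knockout; at an unadjusted p under 0.05, 0, 3 and 1 were lower. The 3 calls in the libraries labelled Smad3 knockout became 0 without any 1 of these libraries or of the double knockout. The list's median was 1.65, 0.39 and 1.45. Dlx3, a homeobox gene of surface ectoderm and placenta, had 13.3 ± 2.4 CPM in the Smad2 knockout, 6.77 ± 1.0 in the libraries labelled Smad3 knockout, 61.6 ± 2.7 in the double knockout and 1.45 ± 0.50 in WT at day 4 (SD, n = 2 each), and was called in all 3 comparisons. Its call in the libraries labelled Smad3 knockout (2.22, adjusted p = 0.0174) was lost without either of them (adjusted p = 0.0875 and 0.133) and without either double knockout library (0.0579 and 0.0592). Gata2, a zinc finger factor of trophoblast and blood, had 15.6 ± 8.5 CPM in the Smad2 knockout, 117 ± 12 in the double knockout and 0.963 ± 0.52 in WT at day 4 (SD, n = 2 each), with log2 fold changes of 4.02 (SE 0.48, adjusted p = 0.000931) and 6.92 (SE 0.53, adjusted p = 5.70e-05). Tfap2c, an AP-2 factor of trophoblast and germ cells, was higher by 1.5 (SE 0.19, adjusted p = 0.00113) and 2.73 (SE 0.20, adjusted p = 4.02e-05) in the same comparisons. Hand1, Gata3, Tfap2a, Tfap2c, Cdx2 and Dlx3 of this list are also among the trophoblast or surface ectoderm markers above.

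Secreted antagonists, which bind BMPs outside the cell, split. Of 11 tested, 2 were higher and 4 lower in the Smad2 knockout, 0 and 1 in the libraries labelled Smad3 knockout and 2 and 3 in the double knockout. The 6 calls in the Smad2 knockout became 3 without WT replicate 1. Cer1, an antagonist of Nodal, WNT and BMP made by anterior endoderm, fell in all 3, with 2 counts in all in the Smad2 knockout, 252 in the libraries labelled Smad3 knockout, 2 in the double knockout and 2015 in WT at day 4; its call in the libraries labelled Smad3 knockout (adjusted p = 0.0174) was lost without either of them (0.183 and 0.207) and without either double knockout library (0.0569 and 0.0571). Chrd, the organizer antagonist chordin, was at 2.18 ± 0.24 CPM in the Smad2 knockout, 3.81 ± 0.71 in the libraries labelled Smad3 knockout, 1.07 ± 0.040 in the double knockout and 12.9 ± 6.9 in WT at day 4 (SD, n = 2 each), and fell in the Smad2 knockout (-2.56, SE 0.40, adjusted p = 0.00229) and the double knockout (-3.59, SE 0.42, adjusted p = 0.000463). Nbl1, a DAN family antagonist, was higher in the Smad2 knockout (2.48, adjusted p = 0.00748). In the double knockout Nbl1 was at 1.81 (adjusted p = 0.0333), lost without either double knockout library (0.0699 and 0.181), without WT replicate 1 (0.102) and without any 1 library of the other groups but the Smad2 knockout and WT at day 4 (0.0515 to 0.0551).

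The list of other ligands had 3 of 7 genes higher in the Smad2 knockout and 2 of 7 in the double knockout, and 0 lower in either. Bmp1, which is in this list by its name only, is among the genes called in both. Bmp8b, a ligand of germ cell induction, had 8.45 ± 0.27 CPM in the Smad2 knockout, 3.45 ± 0.21 in the libraries labelled Smad3 knockout, 12.3 ± 1.4 in the double knockout and 1.35 ± 0.20 in WT at day 4 (SD, n = 2 each), with log2 fold changes of 2.64 (SE 0.29, adjusted p = 0.000764), 1.35 (SE 0.28, adjusted p = 0.0728) and 3.18 (SE 0.30, adjusted p = 0.000145). Bmp1, which despite its name is a protease that cleaves procollagens and chordin, rose in the Smad2 knockout (2.29, SE 0.31, adjusted p = 0.00138); its rise in the double knockout (1.03, SE 0.30, adjusted p = 0.0351) was lost without any 1 library of the double knockout, the libraries labelled Smad3 knockout or WT at day 0 and without WT day 4 replicate 1 (adjusted p from 0.0571 to 0.166). Gdf3, a ligand of pluripotent cells, was at 0.72 (SE 0.18, adjusted p = 0.0139) in the Smad2 knockout, lost without its replicate 2 (0.0541) and not called on log2(TPM + 1) (-0.04, adjusted p = 0.871).

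Of 10 receptors and co-receptors, 1 was higher and 5 lower in the Smad2 knockout and 1 and 1 in the double knockout. The 6 calls in the Smad2 knockout became 3 without its replicate 1, 1 without its replicate 2, 2 without WT replicate 1, 1 with a length correction and 0 when no other groups were fitted. Bmpr1a, the main type I BMP receptor of the early embryo, was at -0.97 (SE 0.23, adjusted p = 0.0117) in the Smad2 knockout, lost without its replicate 2 (0.0629) or WT replicate 1 (0.0668) and close to 0 with a length correction (-0.12, adjusted p = 0.726). Bmpr1b, a type I receptor best known from cartilage, was at -1.84 (SE 0.45, adjusted p = 0.0135) with Smad2 knocked out and at -1.97 (SE 0.45, adjusted p = 0.0132) with both genes knocked out. These calls were lost without WT replicate 1 (0.0608 and 0.0507), the first also without Smad2 knockout replicate 1 (0.0720) and the second without double knockout replicate 2 (0.107). Acvrl1, a type I receptor of endothelium, was the receptor that was higher, by 1.24 (SE 0.37, adjusted p = 0.0279) with Smad2 knocked out and by 1.75 (SE 0.37, adjusted p = 0.00857) with both genes knocked out. The first was lost without Smad2 knockout replicate 2 (0.140) or WT replicate 1 (0.103) and had the other sign on log2(TPM + 1) (-0.064, adjusted p = 0.761), and the second was lost without double knockout replicate 1 (0.0520).

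Of 12 SMADs and their regulators, 0 were higher and 5 lower in the Smad2 knockout and 1 and 3 in the double knockout. The 5 calls became 2 with a length correction, of which 1 was higher, 1 when no other groups were fitted and 10 on log2(TPM + 1), all lower. Skil, a repressor of SMAD complexes that Nodal and TGF-beta signals induce, was at 88.3 ± 3.1 CPM in the Smad2 knockout, 231 ± 28 in the libraries labelled Smad3 knockout, 98.3 ± 8.3 in the double knockout and 314 ± 85 in WT at day 4 (SD, n = 2 each), and fell in the Smad2 knockout (-1.83, SE 0.21, adjusted p = 0.000904) and the double knockout (-1.68, SE 0.21, adjusted p = 0.000691). Smad1, a transducer of BMP signals, fell in both as well (-1.03, SE 0.24, adjusted p = 0.0111, and -1.31, SE 0.24, adjusted p = 0.00468), the first of which a length correction did not call (-0.76, adjusted p = 0.0571). Zeb2, a SMAD-binding repressor, fell in the double knockout (-3.13, SE 0.50, adjusted p = 0.00212). Smad9, another BMP transducer, rose there (1.90, SE 0.41, adjusted p = 0.00993), a call lost without double knockout replicate 1 (1.63, adjusted p = 0.0790).

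Of the 3 E proteins, the factors that ID proteins bind, Tcf12 and Tcf4 were lower than WT in the Smad2 knockout and Tcf12 in the double knockout. Tcf12 was at -1.58 (SE 0.18, adjusted p = 0.000897) when Smad2 was knocked out and at -0.77 (SE 0.18, adjusted p = 0.0138) with both genes knocked out, the second lost without either double knockout library (adjusted p = 0.1104 and 0.0808), without WT replicate 1 (0.0559) and on log2(TPM + 1) (-0.53, adjusted p = 0.126). Tcf4 was at -1.44 (SE 0.21, adjusted p = 0.00176) when Smad2 was knocked out and at -0.37 (SE 0.20, adjusted p = 0.228) with both genes knocked out. In the Smad2 knockout the fold changes of all genes ran with transcript length (Spearman rho -0.50 over 19470 genes, which are not independent), and with a length correction Tcf4 was at -0.61 (adjusted p = 0.0680).

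**Figure D5:**
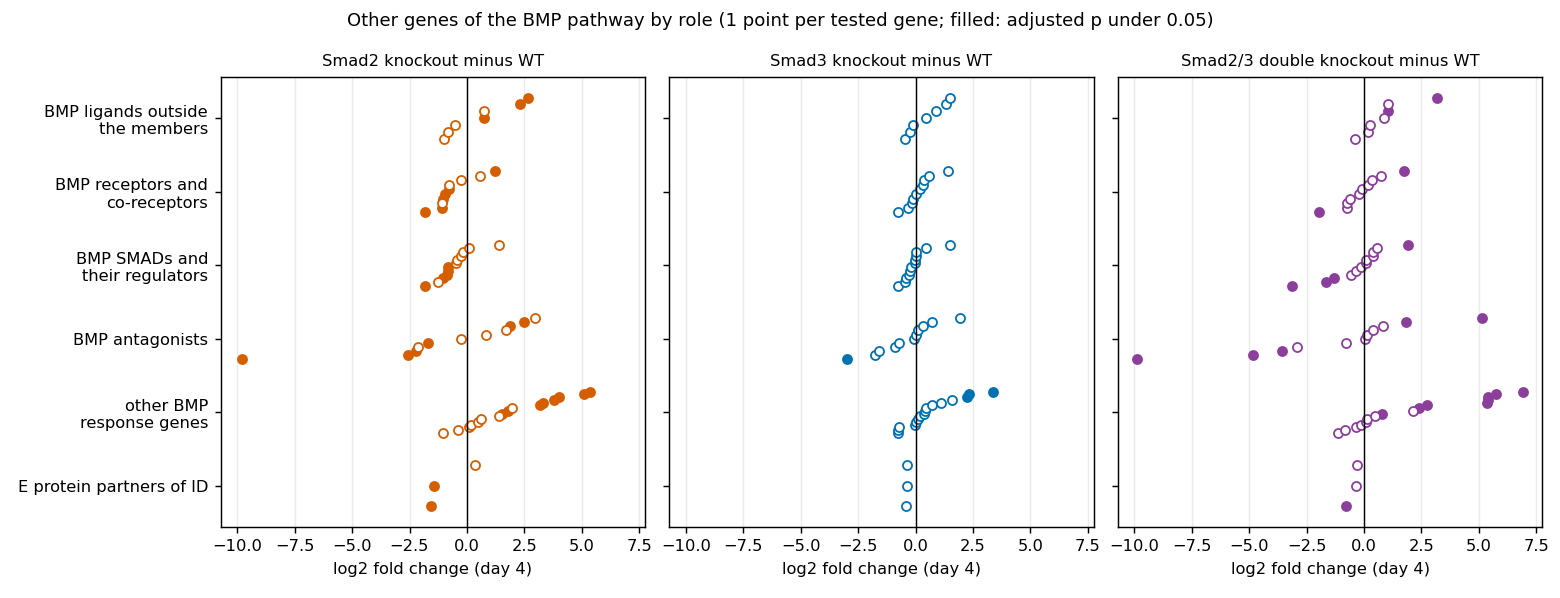
Log2 fold change over WT at day 4 of the 57 other tested pathway genes, in rows by role and with 1 panel for each knockout. Each gene has 1 point in a row, and Smad6 and Smad7 are in both the SMAD row and the response row. Filled points are called (adjusted p under 0.05). The response genes are called on the higher side only, with 8, 3 and 8 of 16, and Cer1, at the far left among the antagonists, has 2 counts in all in the Smad2 and in the double knockout.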

How the data were processed

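The authors deposited 1 gene table per RNA library. Expected counts are RSEM's estimated reads per gene, per the file headers, and not whole for 12.2 to 14.6% of genes. TPM and FPKM were made by the authors, per the file headers, as were the mean transcript lengths. FPKM took no part in any result. In the submitters' processing notes RSEM, STAR, Bowtie2, HOMER, FastQC 0.11.5 and the build mm10 are listed, with no role or order. The annotation version and the strand setting of the counting are not given in the sources used here. Symbols and positions came from GENCODE M21 tables and promoters from RefSeq, matched by gene ID or symbol.

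The members, gene lists and markers were chosen with earlier results of these data known. The rounded expected counts went through filterByExpr, TMM scaling and the quasi-likelihood F test of edgeR 4.0.16 under R 4.3.3 (1 fit of all 5 groups with 5 residual degrees of freedom, called at a Benjamini-Hochberg adjusted p under 0.05). The filter kept 19470 of 53379 genes, and the common biological coefficient of variation was 0.248. The standard error of a log2 fold change was taken from the F statistic. The steps were tested on simulated data. Log2 CPM for likeness used a prior count of 2, and within-series differences a pseudocount of 0.5. Named genes were all members, Smad2 and Smad3, up to 3 genes per list with the smallest adjusted p over the 3 comparisons with WT, genes called against most of their list, and the 2 genes closest to each member; only these are named with values, beside the markers of the cell types. Some genes that these rules pick are not reported here. Alternatives were RLE size factors, no filter, the replicate number or file name series as a block, a length correction (an offset from a loess of counts on length), the compared groups alone, DESeq2 1.42.0, limma 3.58.1 on log2(TPM + 1) and log2(TPM + 0.1), and leaving out each library. Python 3.11.15 drew the figures. Depth was 35733249 to 53672980 counts per library; libraries of a group differed by more than sampling noise.

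Gene positions on mm10 are, for Bmp2, chromosome 2, 133552159 to 133562885, for Bmp7, chromosome 2, 172868012 to 172940321, for Id1, chromosome 2, 152736251 to 152737410, for Bmp4, chromosome 14, 46383520 to 46390669, for Id2, chromosome 12, 25093799 to 25097140, for Id3, chromosome 4, 136143497 to 136145755, for Msx1, chromosome 5, 37820485 to 37824583, for Msx2, chromosome 13, 53466884 to 53473074, and for Bambi, chromosome 18, 3507923 to 3516404.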

Additional observations from a re-analysis of the deposited data

Results flagged for a closer look

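An interaction term in edgeR's quasi-likelihood test (double knockout minus libraries labelled Smad3 knockout, less Smad2 knockout minus WT) was called for Bmp4, Msx2 and Bambi. The value was -1.42 for Bmp4 (adjusted p = 0.0363), -2.12 for Msx2 (adjusted p = 0.0296) and -1.08 for Bambi (adjusted p = 0.0412). For Bmp4 and Msx2 the double knockout exceeded the libraries labelled Smad3 knockout by less than the Smad2 knockout exceeded WT. For Bambi it was lower than them, a difference not called (-0.24, adjusted p = 0.522). All 3 lost their call on both TPM scales, and Bmp4 had the other sign there. Over the 19 alternatives the call was lost with the same sign in 10 for Bmp4, 7 for Msx2 and 12 for Bambi. Each knockout carries 1 line number, so background and line cannot be told apart.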

How the results depend on the processing

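Over the 19 alternatives, 1368 values of members were recomputed; 1166 kept their direction and side of the threshold, or were called neither before nor after (53 of these turned sign), 88 lost a call, 100 gained one and 14 reversed. The count of members called moved as follows. Without the filter it was 5 instead of 3 for the interaction, 5 instead of 3 for the Smad2 knockout against the libraries labelled Smad3 knockout, 5 instead of 2 for the double against the Smad2 knockout, 4 instead of 1 for the double knockout against the libraries labelled Smad3 knockout and 3 instead of 0 for the libraries labelled Smad3 knockout against WT. With the compared groups alone it was 4 instead of 1 for the double knockout against the libraries labelled Smad3 knockout, and with DESeq2 2 instead of 0 for the libraries labelled Smad3 knockout against WT. On log2(TPM + 1) and log2(TPM + 0.1) it was 0 and 0 for the interaction, 1 and 1 for the Smad2 knockout against the libraries labelled Smad3 knockout and 1 and 1 for the double against the Smad2 knockout, and on log2(TPM + 0.1) 2 instead of 4 for the double knockout against WT.

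Leaving out each library gave 0 to 6 for the interaction, 0 to 5 for the Smad2 knockout against the libraries labelled Smad3 knockout, 0 to 5 for the double against the Smad2 knockout, 1 to 4 for the double knockout against the libraries labelled Smad3 knockout, 2 to 6 for the double knockout against WT, 0 to 4 for the libraries labelled Smad3 knockout against WT, 5 to 7 for the Smad2 knockout against WT and 4 to 8 for WT at day 4 against day 0. A library left alone in its group was assumed to vary like the others.

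Reversed values on log2(TPM + 1) and log2(TPM + 0.1) were 0.19 and 0.25 for Bambi and 0.48 and 0.52 for Bmp4 in the double against the Smad2 knockout, 0.16 and 0.16 for the interaction of Bmp4, -0.11 and -0.12 for Bmp4 in the Smad2 knockout against the libraries labelled Smad3 knockout, 0.19 and 0.20 for Id2 in WT at day 4 against day 0, and -0.064 and -0.12 for Acvrl1 and -0.044 and -0.048 for Gdf3 in the Smad2 knockout against WT. With the length correction they were 0.038 for Id2 in WT at day 4 against day 0 and 0.26 for Smad3 in the Smad2 knockout against WT. Leaving out each library gave -1.22 (without WT day 4 replicate 2) to 0.73 for Id3 in WT at day 4 against day 0. For Msx1 in the Smad2 knockout it gave -2.44 to 1.36 against WT and -2.34 to 1.47 against the libraries labelled Smad3 knockout, the lowest both without Smad2 knockout replicate 1. On log2(TPM + 1) the median of all genes moved by up to 0.43, in the double against the Smad2 knockout; the cause of the other reversals was not tested.

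The replicate block called 5, 0 and 4 members in the Smad2 knockout, the libraries labelled Smad3 knockout and the double knockout against WT, as without it, 7 instead of 6 in WT at day 4 against day 0 and 4 instead of 3 for the interaction, Id1 being added in each. The replicate numbers share no stated origin: deviations of same-numbered libraries correlated at 0.11 to 0.51 between the other groups and at -0.18 to -0.04 with the double knockout.

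The number of genes called was 2461 to 8864 over the alternatives, against 6904, in the Smad2 knockout against WT, 0 to 2709 against 108 in the libraries labelled Smad3 knockout, 2126 to 6051 against 4506 in the double knockout, 6504 to 11052 against 10139 in WT at day 4 against day 0, 1898 to 8896 against 6549 between the single knockouts, 3693 to 9729 against 7715 for the double against the Smad2 knockout, 1028 to 6498 against 3025 for the double knockout against the libraries labelled Smad3 knockout and 397 to 7003 against 3673 for the interaction.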
